A study of Mus musculus with 20 samples.

Results

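The genes described here are 10 genes linked to the neuroendocrine neurons of the mouse arcuate nucleus, taken by symbol from the 22048 genes counted in the series. They make up the dopamine synthesis and transport set (Th, Ddc, Slc6a3, Slc18a2), the peptides GHRH, galanin and somatostatin (Ghrh, Gal, Sst), the growth hormone and prolactin receptors (Ghr, Prlr) and the homeobox gene Gsx1. All 10 were found in both datasets and all 10 passed the filter on low counts in each. The choice is by gene name and role, with no threshold on a measured change, but earlier results of these data were known when it was made.

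RNA was sequenced from arcuate nuclei cut out by laser capture microdissection from male C57BL6/J mice, whose age is labelled as 10 weeks. By the study's methods a period of acclimatisation and baseline measurement came before treatment. The drug groups drank corticosterone (Cort), the main glucocorticoid of the mouse, at 75 µg/ml in 1% ethanol, and the vehicle groups drank 1% ethanol alone. Treatment lasted 2 days or 4 weeks, and only the 4 week mice, vehicle and Cort alike, were fasted for 16 h and refed for 24 h at the end. Each of the 4 groups held 5 samples, and after the study left out 3 samples per dataset the comparisons rested on 3 vehicle and 4 Cort samples at each time. The datasets also differed in section thickness, slides, laser system and sequencer, so that an effect of time and an effect of these steps cannot be told apart. The labels number the samples of a group as replicates and do not say more about their origin, so P values measure the spread between these samples.

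Arcuate dopamine neurons release dopamine to the pituitary, where it holds back prolactin secretion, and prolactin in turn acts on these neurons through its receptor. GHRH neurons of the arcuate nucleus drive growth hormone release and somatostatin inhibits it, and growth hormone feeds back on both through its receptor. Glucocorticoids are known to act on both axes. The tissue was sampled in bulk, so fewer cells of a type and less RNA per cell cannot be told apart in any of the values given here. Nor do the values show which cells of the tissue a transcript came from.

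The level of a gene is given as CPM, its count relative to the library size after TMM scaling. Total counts ran from 2487063 to 5748223 per sample at 2 days and from 1065776 to 5196364 at 4 weeks. Of the 7 arcuate neuron markers examined, Kiss1 was at or under 3 counts in every 4 week sample. The summed level of the list differed between the treatments, at 1292 to 1690 CPM in the vehicle and 1784 to 2359 CPM in the Cort samples kept at 2 days, and at 890 to 1293 and 505 to 889 CPM at 4 weeks, without overlap at either time. Over all 10 samples these groups overlapped, at 1292 to 2328 and 1784 to 3000 CPM at 2 days and at 292 to 1293 and 505 to 974 CPM at 4 weeks. Of the list, Agrp, an appetite-promoting peptide, was higher with Cort at 2 days by 1.32 (Padj = 0.010, but 0.92 over all 10 samples) and Npy, made in the same neurons, was lower at 4 weeks, at -2.31 (Padj = 0.097, but 0.99 over all 10 samples), on the log2 scale. At 4 weeks Npy averaged 445 CPM in the vehicle and 89.8 CPM in the Cort samples kept. Of the 6 markers tested there, 2 were higher and 4 were lower with Cort. At an unadjusted P below 0.05 in edgeR's test Npy was lower and Tac2 was higher, beside 4.91% of all genes tested. The part of these markers in the values of the 10 genes was not tested. The 5 ventromedial markers summed to at most 89.8 CPM in any sample. Of the noradrenergic and adrenergic markers, Pnmt and Slc6a2 did not exceed 3 counts in any sample, while Dbh reached at most 17 counts at 2 days and was at 0 in all 10 samples at 4 weeks. The serotonergic genes Slc6a4 and Fev also did not exceed 3 counts anywhere. Tph2, also on that list, exceeded 3 counts at 2 days but not at 4 weeks, and the list summed to at most 2.02 CPM in any sample. The glucocorticoid-responsive gene Fam107a was higher with Cort in both datasets, by 0.98 at 2 days (Padj = 0.0048, but 0.26 over all 10 samples) and by 1.44 at 4 weeks (Padj = 0.097) on the log2 scale. Fkbp5, the classical glucocorticoid-induced co-chaperone, was at 19.7 to 25.9 CPM in the vehicle samples kept at 2 days and at 30.7 to 84.3 CPM with Cort, whereas at 4 weeks the ranges were 3.13 to 165 and 27.3 to 77.6 CPM.

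The 4 week sample C06, a Cort sample that the study left out, was the lowest at 4 weeks for Slc18a2 and Ghrh and the highest for Sst and Ghr in CPM. It held 8 counts of Th, 9 of Slc18a2, 6 of Ghrh and 4 of Slc6a3 in a library of 3646528 counts, together with 4933 counts of Sst and 1525 of Ghr. It was not the lowest for Th or Slc6a3, since Cort sample C09 held 3 counts of Th and vehicle sample C04 held 0 of Slc6a3. C06 is given apart from the samples kept because the study left it out, as are the other samples left out.

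The promoters of these genes, from 250 bases before to 50 bases after each RefSeq start on GRCm38.p6, covered 15 starts for all 10 genes. The full cAMP response element TGACGTCA, bound by CREB-family factors, was present at 3 of the 15 starts, those of Th, Slc18a2 and Sst, and at 588 of 32851 promoters in the table (1.79%). These stretches are shown because 3 of the 10 genes hold this element. It and the glucocorticoid response palindrome given below were the only motifs searched. The capitals mark the element, read 5′ to 3′ on the strand of the gene and ended at the start site or at the end of the element:

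Th, chr7:142899996-142900086, minus strand: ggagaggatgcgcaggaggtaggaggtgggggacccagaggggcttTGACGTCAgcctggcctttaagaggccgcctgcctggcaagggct

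Slc18a2, chr19:59260828-59260881, plus strand: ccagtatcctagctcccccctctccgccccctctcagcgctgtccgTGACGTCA

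Sst, chr16:23890845-23890938, minus strand: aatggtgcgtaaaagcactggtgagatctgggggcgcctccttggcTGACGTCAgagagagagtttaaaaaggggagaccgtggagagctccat

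The element began 45 bases before the start of Th and 48 bases before that of Sst. In Slc18a2 it began 4 bases before the start and ran across it. The glucocorticoid response palindrome, searched as GNACANNNTGTNC on both strands, was found at 0 of the 15 starts and at 156 of the 32851 promoters (0.475%). These are matches of letters in a short window and say nothing of binding.

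Gene positions follow the GENCODE annotation of GRCm38. Th lies on chromosome 7 from 142892752 to 142931128, Ghrh on chromosome 2 from 157329497 to 157347506, Sst on chromosome 16 from 23889573 to 23890958 and Ghr on chromosome 15 from 3317760 to 3583492. Exons of 2 of the 10 genes shared bases with another gene, over 2.12% of the exon bases of Slc18a2 (Gm29261, opposite strand) and over 1.32% of those of Prlr (Gm21973, same strand), so their counts could hold a few reads of these neighbours.

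Sst was the highest of the 10 genes in the vehicle samples, on the scale of CPM per kb of exon. Its median was 845 CPM per kb at 2 days (range 722 to 936) and 1354 CPM per kb at 4 weeks (range 1179 to 1804). Ghrh came next, at 189 CPM per kb (129 to 255) at 2 days and 212 CPM per kb (149 to 219) at 4 weeks, and its range touched neither that of Sst nor that of Gal in either dataset. Gal was at 81.0 CPM per kb at 2 days and at 29.5 CPM per kb at 4 weeks. At 2 days the order then ran Th (22.1), Slc18a2 (15.1), Prlr (12.8), Ddc (12.5), Ghr (8.36), Slc6a3 (6.49) and Gsx1 (1.96 CPM per kb). Slc18a2 and Prlr, Prlr and Ddc, Ghr and Slc6a3, and Slc6a3 and Gsx1 overlapped as neighbours in that order, whereas Gal and Th, Th and Slc18a2, and Ddc and Ghr did not. At 4 weeks Ghr took the fourth place at 21.3 CPM per kb, above Th (15.9) and Prlr (14.3), and the ranges of Gal, Ghr, Th and Prlr overlapped from each gene to the next. Slc18a2 (7.96), Ddc (7.75) and Slc6a3 (5.47 CPM per kb) followed, and Gsx1 was at 0 in 2 of the 3 vehicle samples.

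**Figure D1:**
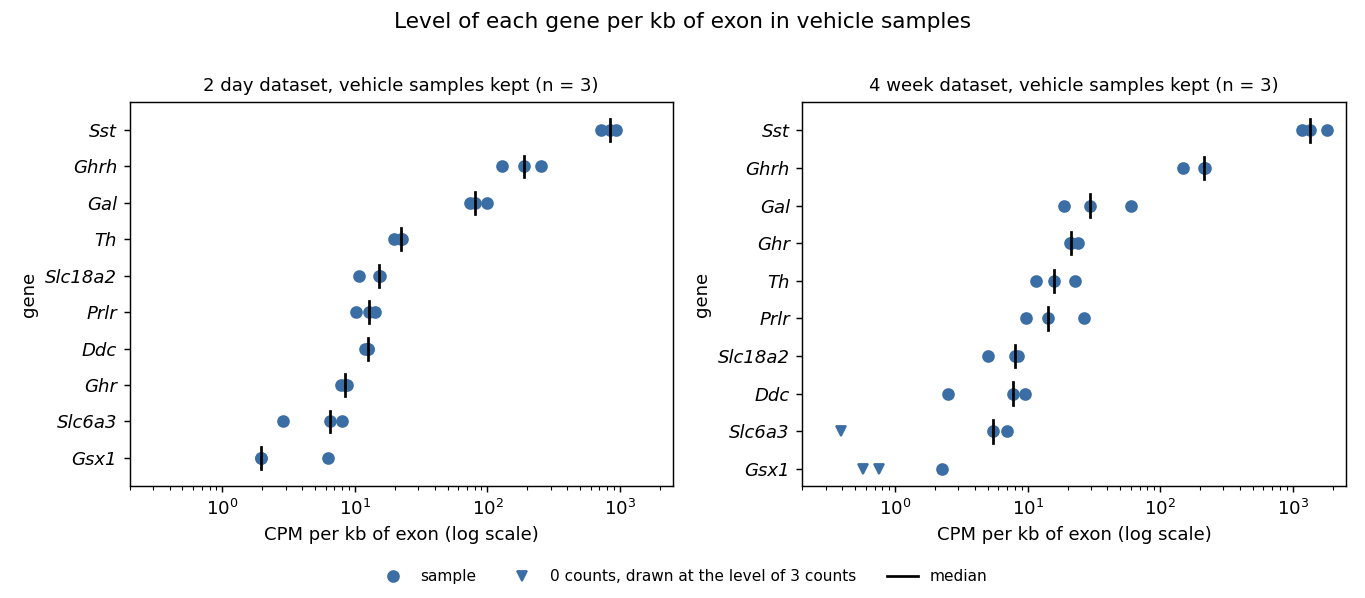
Level of each of the 10 genes in CPM per kb of exon (log axis) in the 3 vehicle samples kept of the 2 day dataset (left) and of the 4 week dataset (right). Points are samples, triangles are samples with 0 counts drawn at the level of 3 counts, and black bars are medians, with no bar where the median is 0. Sst and Ghrh stand above the other genes in both datasets, and Ghr moves from the eighth to the fourth place.

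None of the 10 genes passed Padj below 0.1 for Cort against vehicle at 2 days or at 4 weeks, or for the difference between these responses. At 2 days 8 of 12309 genes passed (0.065%), at 4 weeks 5 of 11211 (0.0446%) and for the difference 2 of 12777 (0.0157%). At an unadjusted P below 0.05, 1 of the 10 genes was reached at 2 days (Ghr; 5.97% of all genes), 0 at 4 weeks (4.91%) and 1 for the difference (Ghr again; 6.49%). DESeq2 also called 0 of the 10 in each comparison, with 1, 0 and 1 at P below 0.05. The vehicle and Cort samples kept overlapped for all 10 genes in both datasets, where 6.63% of all genes at 2 days and 6.53% at 4 weeks had groups that did not overlap. The median log2 fold change of the 10 genes was 0.08 at 2 days and -0.10 at 4 weeks, beside 0.02 and 0.04 over all genes tested.

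The median half-width of the 95% interval of the fold change over the 10 genes was 0.57 at 2 days and 1.57 at 4 weeks on the log2 scale, beside 0.80 and 1.72 over all genes tested. At such a half-width a smaller fitted change leaves 0 inside the interval. A larger change need not pass Padj below 0.1, as for Ghr at 2 days (0.86, half-width 0.53, Padj = 0.52). In the exact 2-sided permutation test the smallest P that 3 against 4 samples can give is 0.057, so that no single gene could pass 0.05 there.

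**Figure D2:**
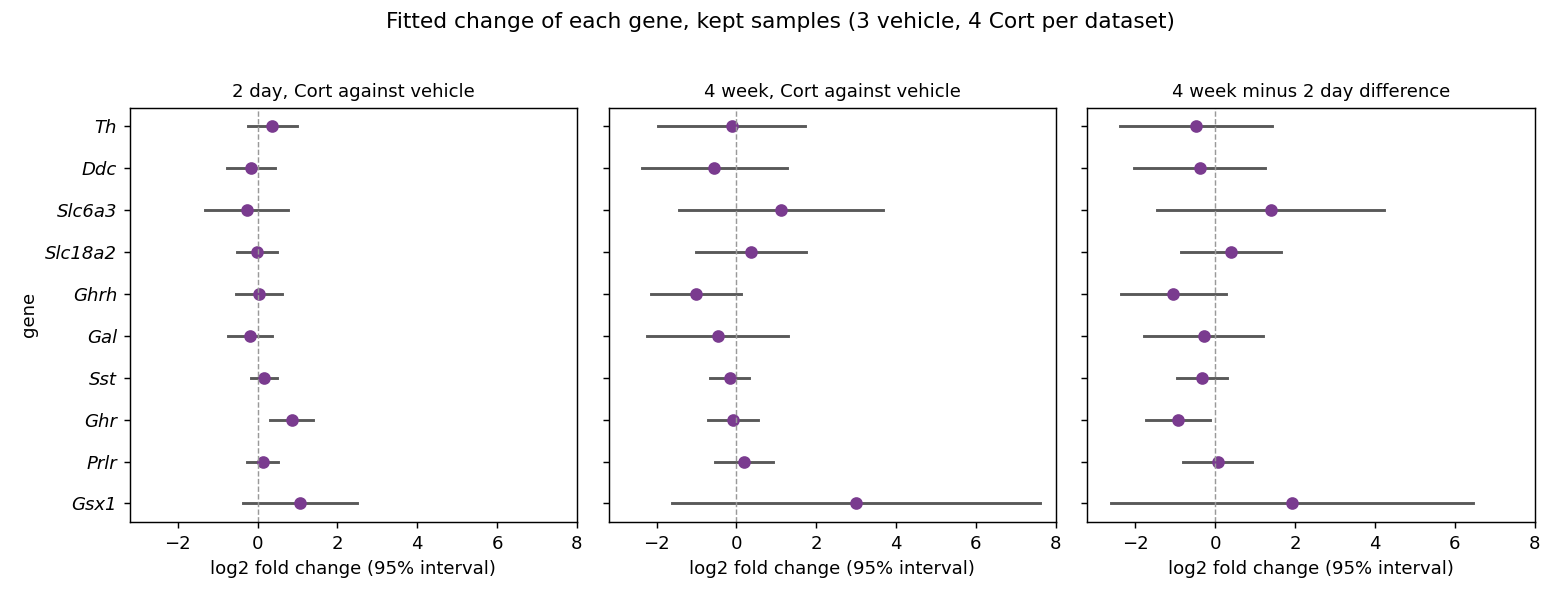
Log2 fold change with its 95% interval for each of the 10 genes, from edgeR's quasi-likelihood fit of the samples kept, for Cort against vehicle at 2 days (left) and at 4 weeks (middle) and for the 4 week response minus the 2 day response (right). Of the intervals, 9 of 10 cross 0 at 2 days, 10 of 10 at 4 weeks and 9 of 10 in the difference, and the exception is Ghr in both cases.

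In the values by sample that follow, 2 day vehicle samples are listed in the order C02, C04 and C05 and 2 day Cort samples in the order C01, C03, C06 and C10, with C07, C09 (vehicle) and C08 (Cort) as the samples left out. The 4 week vehicle samples are listed as C02, C03 and C04 and the 4 week Cort samples as C07, C08, C09 and C10, with C01, C05 (vehicle) and C06 (Cort) left out. Fold changes are log2, Cort against vehicle, from edgeR's quasi-likelihood test, and brackets hold the 95% interval.

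**Figure D3:**
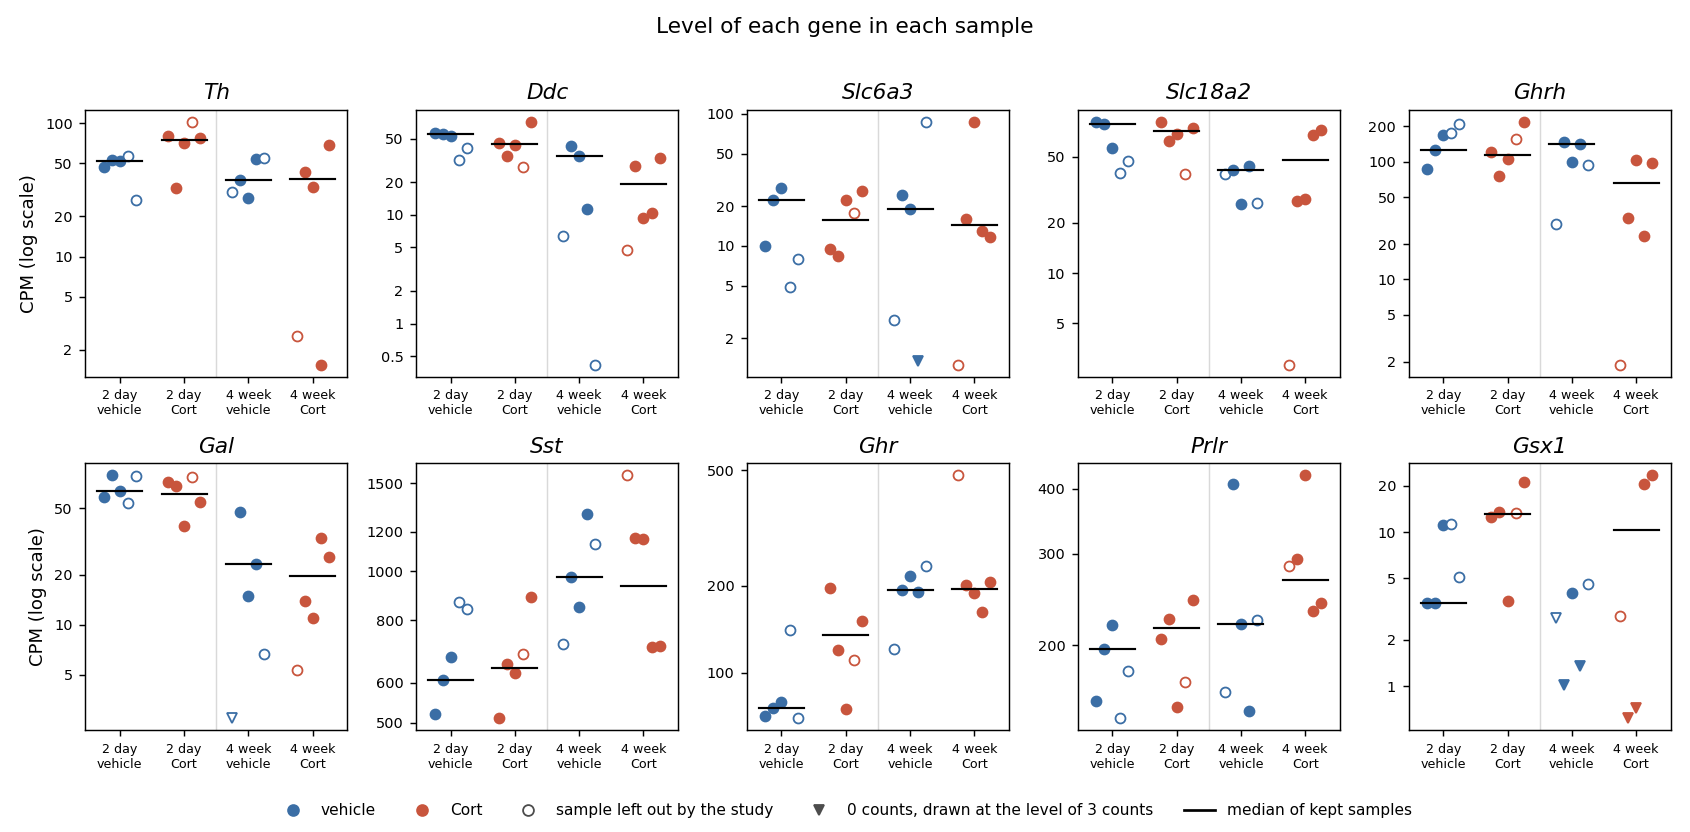
CPM (log axis) of each of the 10 genes in all 20 samples, by dataset and treatment. Filled points are the samples kept, open points those the study left out, triangles are 0 counts drawn at the level of 3 counts, and bars are medians of the samples kept, with no bar where the median is 0. Ghr at 2 days shows 3 of 4 Cort samples kept above the vehicle samples kept, and Th, Slc6a3 and Gsx1 scatter over more than 10-fold among the samples kept at 4 weeks.

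Th encodes tyrosine hydroxylase, the rate-limiting enzyme of dopamine synthesis. At 2 days it was at 46.8, 53.5 and 52.3 CPM with vehicle and at 79.9, 32.7, 71.8 and 77.2 CPM with Cort, a fold change of 0.37 [-0.24 to 0.99] (Padj = 0.92). Of the 4 Cort samples 3 were above and C03 was below all the vehicle samples kept. The samples left out were at 57.1 and 26.8 CPM (vehicle) and 102 CPM (Cort), and with them the fold change was 0.63 (Padj = 0.93). At 4 weeks Th was at 37.5, 27.3 and 53.7 CPM with vehicle and at 43.1, 33.1, 1.55 and 69.2 CPM with Cort (-0.11 [-1.95 to 1.72], Padj = 0.99), and at 30.3, 54.5 (vehicle) and 2.52 CPM (Cort) in those left out. Sample C09 held 3 counts of Th, and without it the fold change was 0.28. Leaving out vehicle sample C04 turned the sign as well (0.17), so the direction at 4 weeks was not stable.

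Ddc encodes aromatic L-amino acid decarboxylase, which makes dopamine from L-DOPA. At 2 days its vehicle samples were close together at 56.5, 55.6 and 53.1 CPM, and its Cort samples were at 46.1, 34.7, 44.1 and 71.2 CPM (-0.16 [-0.76 to 0.44], Padj = 0.97). Those left out were at 31.6, 41.1 and 27.2 CPM, of which all 3 lay under the vehicle samples kept. In the 4 week dataset Ddc was at 42.9, 34.6 and 11.2 CPM with vehicle and at 28.1, 9.29, 10.3 and 33.5 CPM with Cort (-0.55 [-2.37 to 1.27], Padj = 0.99). Both groups held high and low samples, and those left out were at 6.43, 0.419 and 4.72 CPM, the middle value being 1 count in vehicle sample C05.

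Slc6a3 encodes the dopamine transporter of the plasma membrane, which takes dopamine back into the neuron. After 2 days it was at 9.95, 22.4 and 27.7 CPM with vehicle and at 9.39, 8.42, 22.1 and 26.3 CPM with Cort (-0.27 [-1.31 to 0.77], Padj = 0.97), and the left-out samples were at 4.86, 7.99 and 17.8 CPM. The groups covered nearly the same range. After 4 weeks Slc6a3 was at 24.3, 18.9 and 0 CPM with vehicle and at 15.9, 86.7, 12.9 and 11.7 CPM with Cort (1.12 [-1.43 to 3.67], Padj = 0.99), with 2.75, 86.8 and 1.26 CPM in those left out. The 0 counts in C04 allow a level of up to 1.34 CPM. A single high sample stood in each treatment, C05 with vehicle and C08 with Cort, and without C08 the fold change was -0.11.

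Slc18a2 encodes the vesicular monoamine transporter VMAT2, which loads dopamine into vesicles. After 2 days it was at 80.6, 78.9 and 56.5 CPM with vehicle and at 80.2, 61.6, 68.2 and 74.0 CPM with Cort (-0.01 [-0.50 to 0.48], Padj = 0.997), and at 39.7, 46.8 and 39.1 CPM in the samples left out. The Cort samples lay within the vehicle range, and all 3 left-out samples lay under it. After 4 weeks Slc18a2 was at 41.6, 26.1 and 43.9 CPM with vehicle and at 27.2, 27.9, 67.5 and 72.2 CPM with Cort (0.38 [-1.0 to 1.76], Padj = 0.99), and at 39.5, 26.4 and 2.83 CPM in those left out. The Cort samples fell into a lower and a higher pair, of which the lower pair was within the vehicle range.

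The 4 dopamine genes did not always go together from sample to sample at 4 weeks, and their correlation was not computed. In the left-out Cort sample C06 all 4 were low, at 8 counts of Th, 15 of Ddc, 4 of Slc6a3 and 9 of Slc18a2, while other samples diverged. Cort sample C09 held 3 counts of Th beside 131 of Slc18a2, 20 of Ddc and 25 of Slc6a3. Vehicle sample C04 held 0 counts of Slc6a3 beside 120 of Th and 98 of Slc18a2, and the left-out vehicle sample C05 held 207 counts of Slc6a3 and 130 of Th beside 1 of Ddc. At 2 days every one of the 4 genes had at least 24 counts in each of the 10 samples.

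Ghrh encodes growth hormone-releasing hormone. At 2 days it was at 86.3, 126 and 170 CPM with vehicle and at 122, 76.4, 106 and 218 CPM with Cort (0.04 [-0.55 to 0.62], Padj = 0.99), and at 175, 210 and 156 CPM in the samples left out. The Cort samples reached both below and above the vehicle samples kept. After 4 weeks Ghrh was at 146, 99.3 and 142 CPM with vehicle and at 33.0, 103, 23.2 and 98.4 CPM with Cort, which gave 129 ± 25.9 (SD, n = 3) and 64.5 ± 42.2 CPM (SD, n = 4). Of the 4 Cort samples 3 lay below all the vehicle samples kept and C08 lay within them. The fold change was -1.01 [-2.14 to 0.12] with an unadjusted P of 0.076 (Padj = 0.99), and the exact permutation test gave P = 0.11. The excluded samples were at 29.4 and 94.8 CPM (vehicle) and 1.89 CPM (Cort), so that vehicle sample C01 was as low as the low Cort samples. The sign was negative in every alternative and when each sample was left out in turn (-1.33 to -0.74), and the lowest Padj of these was 0.71. The 4 week response minus the 2 day response was -1.05 [-2.37 to 0.27] (Padj = 0.85). Npy, at 317 to 541 CPM in the vehicle and 49.0 to 181 CPM in the Cort samples kept at 4 weeks, was also lower in these Cort samples.

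Gal encodes galanin, a peptide present in part of the dopamine and GHRH neurons. After 2 days it was at 58.2, 78.7 and 63.8 CPM with vehicle and at 71.7, 68.0, 38.9 and 54.5 CPM with Cort (-0.19 [-0.75 to 0.37], Padj = 0.96), and at 54.1, 77.9 and 77.2 CPM in the samples left out. The groups overlapped broadly. The 4 week levels of Gal were 47.3, 14.9 and 23.3 CPM with vehicle and 13.8, 11.0, 33.0 and 25.5 CPM with Cort (-0.47 [-2.23 to 1.30], Padj = 0.99), and at 0, 6.71 and 5.35 CPM in those left out. Without vehicle sample C02, the highest, the fold change was 0.13.

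Sst encodes somatostatin, the inhibitor of growth hormone release, and was counted 783 times or more in every sample. At 2 days it was at 521, 609 and 675 CPM with vehicle and at 511, 654, 629 and 891 CPM with Cort (0.17 [-0.16 to 0.49], Padj = 0.94), and at 871, 841 and 686 CPM in those left out. Only C10 of the Cort samples was above the vehicle samples kept. In the 4 week dataset Sst was at 976, 850 and 1301 CPM with vehicle and at 1165, 1158, 708 and 710 CPM with Cort (-0.17 [-0.65 to 0.31], Padj = 0.99), and at 719, 1136 and 1553 CPM in those left out. The interval of Sst was the narrowest of the 10 in both datasets, and its upper bound left room for at most 1.40-fold higher levels with Cort at 2 days and its lower bound for 0.64 times the vehicle level at 4 weeks.

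Ghr encodes the growth hormone receptor and was the gene of the set with the smallest P at 2 days. It was at 71.2, 75.7 and 79.3 CPM with vehicle and at 196, 120, 75.2 and 152 CPM with Cort, which gave 75.4 ± 4.08 (SD, n = 3) and 136 ± 51.1 CPM (SD, n = 4). Samples C01, C03 and C10 were above all the vehicle samples kept, and C06 was among them. The fold change was 0.86 [0.32 to 1.39], or 1.81-fold, with an unadjusted P of 0.0032 and a Padj of 0.52, and the exact permutation test gave P = 0.17. C06 was also the Cort sample with the lowest Fkbp5, at 30.7 CPM against 67.0 to 84.3 CPM in the other 3 kept. Its Fam107a, at 916 CPM, was also the lowest of the Cort samples kept but above the vehicle samples kept (464 to 639 CPM). Whether C06 differs in its exposure to Cort was not tested. Without C06 the fold change was 1.06 and Padj 0.062. Ghr thus passed Padj below 0.1 only when C06 was left out, whereas leaving out any other sample gave 0.62 to 0.91 and a Padj of 0.54 or more. The samples left out were at 140 and 69.9 CPM (vehicle) and 111 CPM (Cort), and over all 10 samples the fold change was 0.59 (Padj = 0.93).

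At 4 weeks Ghr was at 193, 217 and 190 CPM with vehicle and at 202, 189, 162 and 206 CPM with Cort, which gave 200 ± 14.6 (SD, n = 3) and 190 ± 19.9 CPM (SD, n = 4) and a fold change of -0.09 [-0.71 to 0.53] (Padj = 0.99). The groups overlapped, and over the samples kept the spread within them was smaller than for nearly all other genes. The excluded samples were at 121 and 234 CPM (vehicle) and 480 CPM (Cort sample C06), and with them the fold change was 0.36 (Padj = 0.99). The response at 4 weeks minus that at 2 days was -0.94 [-1.74 to -0.14] with an unadjusted P of 0.024 and a Padj of 0.73, and over all 20 samples it was -0.23 (Padj = 0.98).

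Prlr encodes the prolactin receptor. After 2 days it was at 156, 196 and 218 CPM with vehicle and at 206, 225, 152 and 244 CPM with Cort (0.13 [-0.25 to 0.50], Padj = 0.96), and at 145, 179 and 170 CPM in the samples left out. The 2 groups covered nearly the same range. After 4 weeks Prlr was at 408, 219 and 150 CPM with vehicle and at 293, 424, 232 and 241 CPM with Cort (0.19 [-0.55 to 0.92], Padj = 0.99), and at 162, 224 and 284 CPM in those left out. The 2 highest samples, C02 and C08, came 1 from each treatment.

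Gsx1, a homeobox factor needed in development for GHRH neurons, was the lowest of the set. At 2 days it was at 3.48, 3.45 and 11.2 CPM with vehicle (14, 16 and 55 counts) and at 12.6, 13.5, 3.57 and 21.1 CPM with Cort (1.06 [-0.37 to 2.49], Padj = 0.89). Of the 4 Cort samples 3 were above the vehicle samples kept and C06 was near the lower 2 of these, and the exact permutation test gave P = 0.11. The excluded samples were at 11.3, 5.13 and 13.3 CPM. Leaving out each sample gave 0.71 to 1.87, the highest without vehicle sample C05 (Padj above 0.99). In the 4 week dataset Gsx1 was at 0, 4.02 and 0 CPM with vehicle and at 0, 0, 20.6 and 23.4 CPM with Cort, and at 0, 4.61 and 2.83 CPM in those left out. It was at 0 counts in 5 of the 10 samples, and its fitted change was 2.99 [-1.62 to 7.59] (Padj = 0.99). Leaving out each sample gave 2.43 to 8.16, the highest without C03 (Padj = 0.997), where both vehicle samples left are at 0 and the fitted value is no bound.

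The within-group SD of log2 CPM was taken over the samples kept. At 2 days that of the 10 genes ranged from 0.22 (Slc18a2) to 0.99 (Gsx1), beside a median of 0.46 over the 12309 genes tested. At 4 weeks it ranged from 0.14 (Ghr) to 2.46 (Gsx1), beside a median of 0.94 over 11211 genes. Ghr was at the 0.31 percentile of all genes at 4 weeks and at the 49.2 percentile at 2 days. Th was at the 84.6 percentile, Slc6a3 at 93.8 and Gsx1 at 98.6 at 4 weeks, while Sst was at 9.64. Over the samples kept the SD was larger at 4 weeks than at 2 days for 9 of the 10 genes, Ghr being the exception. With the samples left out included, Ghr ran from 121 to 480 CPM at 4 weeks (3.96-fold) and from 69.9 to 196 CPM at 2 days (2.81-fold). Its place among all genes thus holds for the samples kept only.

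**Figure D4:**
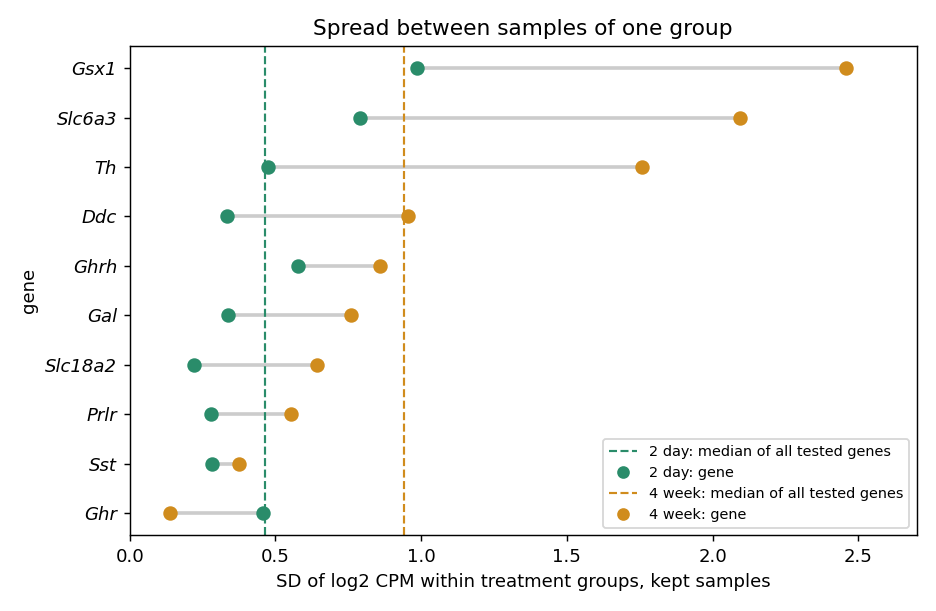
Standard deviation of log2 CPM within treatment groups over the samples kept, for each of the 10 genes at 2 days (green) and at 4 weeks (orange). Dashed lines are the medians over all genes tested, 0.46 at 2 days and 0.94 at 4 weeks. Gsx1, Slc6a3 and Th lie far above the 4 week median, and Ghr and Sst lie far below it.

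Other genes of the same pathways were taken from fixed lists. Of 12 genes for the cofactor, breakdown and regulation of dopamine, 11 were tested in each dataset and 0 passed Padj below 0.1. At P below 0.05 there was 1 at 2 days and 1 at 4 weeks, beside 5.97% and 4.91% of all genes tested. The median fold changes were 0.06 and -0.03. The gene with the smallest P at 2 days was Aldh1a1, an aldehyde dehydrogenase found in some dopamine neurons, at 42.2 ± 6.09 CPM (SD, n = 3) in the vehicle group and at 66.2 ± 24.1 CPM (SD, n = 4) in the Cort group (0.66, Padj = 0.82). The 4 week gene was Gch1, GTP cyclohydrolase, which makes the cofactor that tyrosine hydroxylase needs. Gch1 was at 12.5 to 33.1 CPM in the vehicle samples kept and at 0.238 to 5.98 CPM in the Cort samples kept, which did not overlap (-2.98 [-5.53 to -0.43], Padj = 0.99). Gch1 was picked by its small P, and 6.53% of all genes tested at 4 weeks had groups that did not overlap. The samples left out went the other way, at 2.75 and 1.68 CPM for vehicle and 23.6 CPM for Cort, and over all 10 samples the fold change was -1.09 (Padj = 0.99).

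Of 13 genes of the growth hormone axis, 12 were tested at 2 days and 8 at 4 weeks, and 0 passed in either. At 2 days 2 were at P below 0.05, beside 5.97% of all genes tested. Both were higher with Cort, and the smallest P was that of Ghsr, the ghrelin receptor. Ghsr was at 28.7 to 34.5 CPM in the vehicle samples kept and at 39.7 to 72.4 CPM with Cort, groups that did not overlap (0.81 [0.19 to 1.43], Padj = 0.69), and over all 10 samples the fold change was 1.15 (Padj = 0.61). Ghsr was picked by its small P, and 6.63% of all genes tested at 2 days had groups that did not overlap. At 4 weeks the smallest P was that of Igf1, the growth factor through which growth hormone acts on many tissues, at 0.338 to 2.69 CPM with vehicle and 0.238 to 135 CPM with Cort (5.14 [1.64 to 8.63], Padj = 0.92). In counts, Igf1 was at 1, 1 and 6 in vehicle samples C02, C03 and C04. It was at 652, 1, 38 and 29 counts in Cort samples C07, C08, C09 and C10, so its fold change rests on vehicle values near the floor. The list medians were 0.13 at 2 days and 0.52 at 4 weeks.

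Of 10 genes of the signalling that the growth hormone and prolactin receptors share, 9 were tested at 2 days and 8 at 4 weeks, and 0 passed or reached P below 0.05 in either. Their median fold changes were -0.03 and -0.11. Cish, a STAT5-induced inhibitor of cytokine receptor signalling, had the smallest P in both datasets. It was at 10.4 ± 11.0 CPM (SD, n = 3) in the vehicle group and at 4.65 ± 3.74 CPM (SD, n = 4) in the Cort group at 2 days (Padj = 0.92). At 4 weeks it was at 3.62 to 4.48 CPM with vehicle and at 0 to 1.03 CPM with Cort in the samples kept (-4.12 [-8.27 to 0.04], Padj = 0.99). Cish was picked by its small P, and 6.53% of all genes tested at 4 weeks had groups that did not overlap. The galanin system was close to the limit of detection, since of 4 genes only Galr1, a galanin receptor, was tested at 2 days (-1.62, Padj = 0.89) and 0 at 4 weeks.

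Of 11 transcription factors of these neurons, 10 were tested at 2 days and 8 at 4 weeks, and 0 passed, with medians of 0.29 and -0.29. Otp, a homeobox factor of hypothalamic neuroendocrine neurons, had the smallest P at 2 days, at 127 ± 11.2 CPM (SD, n = 3) in the vehicle group and at 155 ± 11.2 CPM (SD, n = 4) in the Cort group (0.30, Padj = 0.86). The 4 week gene was Sox14, a transcription factor of the SOX family, at 0 to 1.61 CPM in the vehicle samples kept and at 2.06 to 32.6 CPM in the Cort samples kept (4.80, Padj = 0.99), and at 0 in all 3 samples left out. Sox14 was picked by its small P, and 6.53% of all genes tested at 4 weeks had groups that did not overlap.

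Markers of neighbouring tissue differed in level between the treatments in places, with 0 of those named here past Padj below 0.1. At 2 days 2 of the 3 paraventricular and magnocellular genes tested, Avp and Oxt, were higher with Cort at P below 0.05, beside 5.97% of all genes tested. The summed level of the list of 5 was 35.6 to 88.1 CPM in the vehicle samples kept and 70.3 to 429 CPM in the Cort samples kept. Crh did not exceed 3 counts in any sample. The histaminergic marker Hdc was at 36.6 to 65.7 CPM with vehicle and at 7.56 to 46.5 CPM with Cort in the samples kept at 2 days. Over all 10 samples it was at 6.07 to 65.7 and 7.56 to 46.5 CPM, with a fold change of -0.48 (Padj = 0.98). At 4 weeks the tanycyte list of 6 summed to 568 to 937 CPM with vehicle and to 246 to 559 CPM with Cort in the samples kept, without overlap. Over all 10 samples these groups overlapped, at 568 to 937 and 246 to 606 CPM. The part of these neighbouring markers in the values of the 10 genes was not tested. In the samples kept at 4 weeks astrocyte markers summed to 554 to 711 CPM with vehicle and 677 to 774 CPM with Cort, and microglial markers to 124 to 212 and 89.3 to 195 CPM. Of the pituitary markers, Gh, Prl and Tshb did not exceed 3 counts in any 4 week sample, and at 2 days the list summed to at most 39.5 CPM.

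For Th, Ghrh and Sst the genes with the most similar pattern were looked up, as a description with no test. The measure was Pearson's r of log2 CPM after subtracting the mean of each dataset and treatment group, over the 14 samples kept, which share libraries and depth with the gene itself. For Th these were Lsm12 (r = 0.97), Tnfaip8l3 (0.94) and Ppp2r2d (0.93). For Ghrh they were Sgms2 (0.97), Lrrc9 (0.95) and Nova1 (0.91), and for Sst Foxk1 (0.92), Rgs12 (0.90) and Trappc5 (0.88). Over all 20 samples only Trappc5 was still among the 3 nearest (r = 0.83), while r fell to 0.27 for Lsm12, 0.13 for Nova1 and 0.38 for Foxk1, so that these likenesses depend on which samples are used.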

How the data were processed

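Raw counts of 22048 genes per sample were deposited by the authors, who mapped single-end reads to GRCm38 with Rsubread and counted them with featureCounts. Versions, strand and multi-mapping settings are not given in the sources used here, apart from CASAVA 1.7 in the submitters' processing notes. RNA was amplified, so floors of 3 counts cover counting error only. From the deposited normalised tables, whose signal values the authors made by dividing counts by DESeq2 size factors, only symbols and the mean were used; their columns per sample and their own fold changes, Wald statistics and P values were not. The mean matched that of the 7 samples kept within 0.1% for 22048 of 22048 genes in both datasets. In the 2 day normalised table some columns hold the values of a raw column of another name, so sample names here follow the raw tables, tied to groups by the sample list of the study.

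Counts were fitted within each dataset with edgeR 4.0.16 (R 4.3.3; filterByExpr, TMM, 2-sided quasi-likelihood test, Benjamini-Hochberg Padj over all genes, threshold 0.1), and both datasets together for the difference. Intervals are approximate, from the fitted change and its F statistic. Log2 CPM had a prior count of 2. Alternatives were DESeq2 1.42.0, upper quartile scaling, no filter, a minimum of 10 counts in each sample, the whole set of samples, limma 3.58.1 voom with sample weights, leaving out each sample, and a prior count of 0.5. Tests were tested on simulated data. Python 3 with scipy gave the exact permutation tests. No 2 libraries of the same group agreed within sampling noise; pairs across groups were not compared. Named pathway genes are those with Padj below 0.1 and the smallest P of each list and dataset; any further gene was named with its values known. The 10 genes and all lists were chosen with earlier results of these data known.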

Additional observations from a re-analysis of the deposited data

Results flagged for a closer look

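In 40 groups of 5 samples (10 genes in 4 groups, samples left out included) a sample stood apart from the others of its group by Dixon's criterion in 5. For normal values chance flags about 1 in 20 groups. The criterion was applied to CPM without log transformation, and the 10 genes share the same samples, so that rate need not hold here. Of the 5 samples flagged, 3 are samples that the study left out. Ghr was at 140 CPM in 2 day vehicle sample C07, next to 79.3 CPM in the second highest, and at 480 CPM in 4 week Cort sample C06, next to 206 CPM. Slc6a3 was at 86.8 CPM in 4 week vehicle sample C05, next to 24.3 CPM, and at 86.7 CPM in 4 week Cort sample C08, next to 15.9 CPM. Prlr was at 408 CPM in 4 week vehicle sample C02, next to 224 CPM.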

How the results depend on the processing

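The number of the 10 genes passing Padj below 0.1 was 0 under every alternative in all 3 comparisons, apart from 2 days without Cort sample C06, where Ghr passed; leaving out each sample gave 0 to 1 at 2 days, 0 at 4 weeks and 0 for the difference. Over all genes, counts past Padj moved more. At 2 days 8 became 54 with DESeq2, 24 without the filter, 2 with all samples, 4 with voom and 1 to 16 without a sample. At 4 weeks 5 became 43 with DESeq2, 3 with upper quartile scaling, 9 without the filter, 1 with all samples and 0 to 10 without a sample. For the difference 2 became 39 with DESeq2, 0 with all samples, 0 with voom and 0 to 3 without a sample. Gsx1 was not tested with all 4 week samples or without 4 week C09 or C10, nor were 3 of the 10 genes when at least 10 counts were asked of every 4 week sample.

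Of single fold changes, several changed sign, most of them near 0 but not all (Slc6a3 from 1.12 at 4 weeks and from 1.39 in the difference, and Gal from -0.47 at 4 weeks). With all samples at 2 days these were Slc6a3 (0.21), Slc18a2 (0.10), Ghrh (-0.17; voom -0.072) and Sst (-0.051), at 4 weeks Slc6a3 (-0.077), Sst (0.072) and Ghr (0.36; voom 0.023), and for the difference Slc6a3 (-0.27), Gal (0.0020) and Sst (0.13). Voom also turned Gal (0.46) at 4 weeks, and Gal (0.67) and Ddc (0.20) in the difference. Leaving out each sample gave ranges across 0 for Slc6a3 (-0.59 to 0.038), Slc18a2 (-0.15 to 0.078), Ghrh (-0.32 to 0.31) and Sst (-0.0017 to 0.28) at 2 days, for Th (-0.62 to 0.28), Slc6a3 (-0.11 to 1.74), Gal (-0.78 to 0.13), Sst (-0.29 to 0.026) and Prlr (-0.084 to 0.69) at 4 weeks, and for Gal (-0.60 to 0.31) and Prlr (-0.21 to 0.56) in the difference. In the mean log2 CPM used by the permutation test, all 10 samples turned Slc6a3 (0.34), Slc18a2 (0.11) and Sst (-0.058) at 2 days and Ddc (0.40), Slc18a2 (-0.39), Gal (0.66), Sst (0.052) and Ghr (0.29) at 4 weeks. The prior count of 0.5 turned no sign. Apart from the samples left out by construction, the cause was not tested. No paired analysis was possible because the columns of the count tables carry none of the labels' replicate numbers.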
